A study of Trametes cinnabarina with 17 samples.

Results

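A pair of predicted enzyme genes of the white-rot fungus *Pycnoporus cinnabarinus* CIRM-BRFM 137, a homogentisate dioxygenase (protein ID 6432) and a member of the epoxide hydrolase family (protein ID 5280), are described across 6 carbon sources. The count table lists 10442 gene models, of which these are 2. Both were chosen from these data because they part pine and aspen in opposite directions, so their levels on these woods are given as a description and were not tested. The functions rest on orthologous group codes in the study's annotation (with an enzyme code for 6432 only), and the transcript data cannot check them.

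Mycelium was harvested after 3 days of liquid culture of 1 strain, and poly-A RNA was sequenced. Pine, a softwood, and aspen, a hardwood, had 3 libraries each, as had wheat straw, xylan-galactomannan (a mixture of hemicelluloses) and maltose, while Avicel, a pure cellulose, had 2, numbered 1 and 3. By their labels, all cultures shared a mineral base with yeast extract, to which either 20 g/l of maltose or 15 g/l of a substrate plus a further 2.5 g/l of maltose was added. Maltose libraries therefore differ from all others in substrate and maltose dose at once, and the study's text, which names each substrate as the sole carbon source, leaves this point unresolved. The study describes its cultures as independent, but the description does not cover xylan-galactomannan, where p-values may measure technical spread only. Libraries held 10668073 to 16176027 counts in total, and no pair of replicates agreed within sampling noise (lowest chi-square per degree of freedom 8.50).

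Homogentisate dioxygenase opens the aromatic ring of homogentisate in the breakdown of phenylalanine and tyrosine, a route that ends in fumarate and acetoacetate. Epoxide hydrolases add water to epoxides and so turn reactive compounds into diols, which cells can process further or export. White-rot fungi meet many aromatic compounds in wood, both from lignin and from extractives such as resins and phenolics, and the extractives of softwoods and hardwoods differ. Other enzymes that act on such compounds are cytochrome P450 monooxygenases and laccases, and ABC transporters can export them.

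The homogentisate dioxygenase gene was transcribed at a high level on aspen alone. Its normalized counts (counts divided by a size factor for each library) were 294, 216 and 318 in the pine libraries. They were 8689, 12417 and 10043 in the aspen libraries. These aspen libraries thus all lay far above all pine libraries. Wheat straw gave 326, 478 and 414 normalized counts, and xylan-galactomannan gave 269, 210 and 233. Avicel gave 194 and 192 normalized counts, and maltose gave 169, 199 and 131. The highest library outside the aspen group was thus wheat straw replicate 2, at 478, and the lowest raw count of the gene was 151, in maltose replicate 3.

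By group, 6432 averaged 276 ± 53.7 normalized counts in the pine libraries and 10383 ± 1887 in the aspen libraries (SD, n = 3 each). The order of the other means was wheat straw (406 ± 76.6), xylan-galactomannan (237 ± 29.6), Avicel (193 ± 1.76, n = 2) and maltose (166 ± 34.2). Pine thus came between wheat straw and xylan-galactomannan. Its libraries overlapped with those of xylan-galactomannan, and its highest library, at 318, lay just under the lowest wheat straw library, at 326. Xylan-galactomannan did not overlap with Avicel, and Avicel overlapped with maltose. Within the aspen libraries the gene ranked 272, 143 and 190 by normalized count among 9167 genes, and in the other libraries it ranked between 5266 and 7525. These ranks take no account of gene length. In a bulk extract of mycelium, fewer hyphae that transcribe a gene and less transcript per hypha cannot be told apart.

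The epoxide hydrolase gene showed the opposite order of the woods, with its highest level on pine and its lowest on aspen. Pine libraries gave 15349, 21469 and 19271 normalized counts. Aspen libraries gave 896, 1214 and 1165 normalized counts. Every pine library was above, and every aspen library below, all libraries of the other 4 carbon sources. Wheat straw gave 5564, 3847 and 4576 normalized counts, and xylan-galactomannan gave 8449, 4451 and 6308. Avicel gave 5701 and 8233 normalized counts, and maltose gave 2406, 2488 and 3899. These 4 carbon sources lay between the woods and partly overlapped with one another.

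By group, 5280 averaged 18696 ± 3100 normalized counts in the pine libraries and 1092 ± 171 in the aspen libraries (SD, n = 3 each). Avicel came after pine with 6967 ± 1791 (n = 2), followed by xylan-galactomannan with 6403 ± 2001, wheat straw with 4662 ± 862 and maltose with 2931 ± 839. Neighbouring groups in this order from Avicel down to maltose had overlapping libraries. In the pine libraries the gene ranked 134, 81 and 86 among 9167 genes, and even in the aspen libraries it ranked between 2600 and 3503. In the other 11 libraries its rank lay between 208 and 1101.

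**Figure D1:**
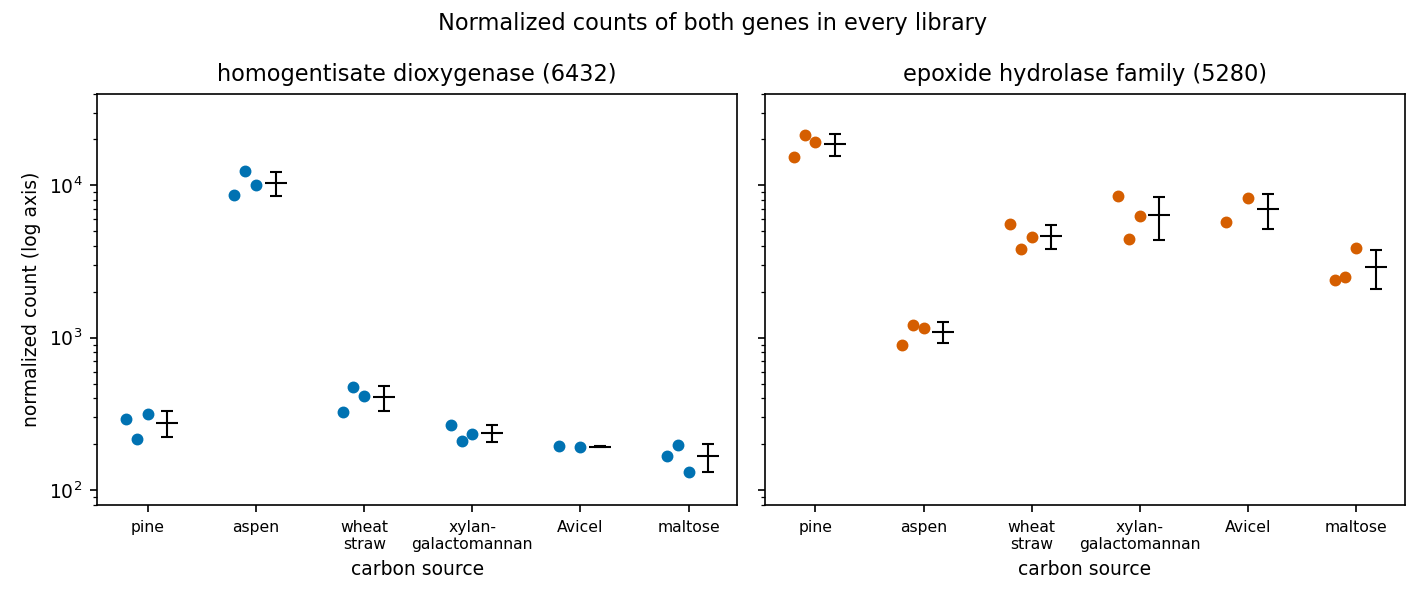
Normalized counts (log axis) of the homogentisate dioxygenase gene 6432 (left) and the epoxide hydrolase gene 5280 (right) in each library, by carbon source; dots are libraries and the black marks are the mean and SD of each group. The 3 aspen libraries of 6432 lie between 8689 and 12417, above all others, and the 3 pine libraries of 5280 lie between 15349 and 21469, with its aspen libraries lowest.

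The question that joins both genes is how far the 2 woods differ. In the fit over all 17 libraries, the log2 fold change of 6432 for pine minus aspen was -5.25 ± 0.21 (SE), or 38.0-fold lower on pine. That of 5280 was 4.08 ± 0.27 (SE), or 16.9-fold higher on pine. Across all genes tested, 7.8% were called higher on pine and 4.33% were called lower there than on aspen, and the members were picked from the ends of this same comparison. The dioxygenase stood second from the lower end of the 9162 genes. Next to it were 2860, which had no counts on pine and averaged 19.1 normalized counts on aspen, and 6923, at -5.20, with means of 105 on pine and 3795 on aspen. The epoxide hydrolase stood second from the upper end, between 5730 at 5.25 (means of 8837 on pine and 229 on aspen) and 3983 at 4.04 (means of 23352 on pine and 1407 on aspen). The files do not pair these 4 protein IDs with names.

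The dioxygenase owed its place to the aspen libraries. For aspen the log2 fold change was 4.68 ± 0.20 against wheat straw, 5.45 ± 0.21 against xylan-galactomannan, 5.76 ± 0.26 against Avicel and 5.94 ± 0.22 against maltose (SE). For pine it was -0.57 ± 0.19 against wheat straw, 0.20 ± 0.19 against xylan-galactomannan, 0.51 ± 0.22 against Avicel and 0.69 ± 0.19 against maltose. The pine libraries thus lay within the range of the non-wood libraries. The lowest aspen library was 18.2-fold above the highest library of any other carbon source, and no other of the 9153 genes compared this way reached 10-fold. As a background, 550 genes had all their aspen libraries above all others.

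The epoxide hydrolase differed from the other carbon sources on both woods. For pine its log2 fold change was 1.99 ± 0.25 against wheat straw, 1.53 ± 0.24 against xylan-galactomannan, 1.41 ± 0.28 against Avicel and 2.63 ± 0.25 against maltose (SE). For aspen it was -2.09 ± 0.25 against wheat straw, -2.55 ± 0.25 against xylan-galactomannan, -2.67 ± 0.27 against Avicel and -1.45 ± 0.24 against maltose. These comparisons share their aspen or pine libraries. The lowest pine library was 1.82-fold above the highest other library, and the highest aspen library was 1.98-fold below the lowest other library. Of the 9153 genes, 798 had every pine library highest, 438 had every aspen library lowest, and 44 had both.

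The ratio of the 2 genes within a library needs no scaling between libraries. A gap between its pine and aspen values follows from how the genes were chosen, so the ratio is only described. The count of 5280 over that of 6432 was 52.1, 99.6 and 60.6 in the pine libraries and 0.103, 0.0978 and 0.116 in the aspen libraries. Aspen was thus the only carbon source on which the dioxygenase had more counts than the epoxide hydrolase. Elsewhere the ratio lay at 8.04 to 17.1 (wheat straw), 21.2 to 31.4 (xylan-galactomannan), 29.4 to 43.0 (Avicel) and 12.5 to 29.8 (maltose). Gene lengths were not used, so the ratio compares libraries and does not say which gene had more transcripts.

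**Figure D2:**
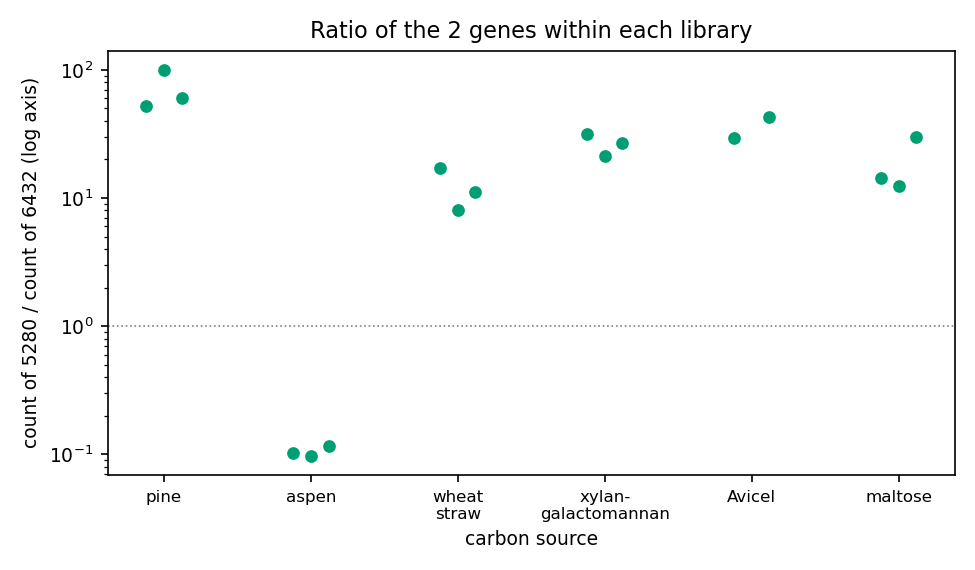
Count of the epoxide hydrolase gene 5280 divided by the count of the homogentisate dioxygenase gene 6432 (log axis) in each library, by carbon source; dots are libraries and the dotted line marks equal counts. The aspen libraries lie at 0.0978 to 0.116, and the libraries of all other carbon sources lie between 8.04 and 99.6.

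Whether the genes also respond to carbon sources other than wood was tested in the libraries of wheat straw, xylan-galactomannan, Avicel and maltose, which did not enter the pine against aspen ranking that picked them. These tests are not free of selection, because both genes carry a predicted function only as part of an annotated set that the study chose for higher levels on plant substrates than on maltose and Avicel. The xylan-galactomannan libraries alone took no part in that choice. The 6 comparisons among them were tested for each gene with the quasi-likelihood test of edgeR, and a gene was called at a Benjamini-Hochberg adjusted p under 0.05 over all 9162 genes when its log2 fold change also lay beyond 1 or -1. The dioxygenase rose on wheat straw, by a log2 fold change of 1.26 ± 0.19 against maltose (SE, edgeR adjusted p = 2.54e-05) and by 1.08 ± 0.22 against Avicel (edgeR adjusted p = 0.000622). The wheat straw libraries did not overlap with those of maltose or Avicel. Of all genes, 9.53% were called higher and 6.13% lower on wheat straw than on maltose, and 8.18% were called higher than on Avicel. Against xylan-galactomannan the log2 fold change on wheat straw was 0.77 ± 0.19 (edgeR adjusted p = 0.00233), which passed the p threshold but not that on fold change (15.2% of all genes were called, in either direction). The call against Avicel was lost without wheat straw replicate 2, where the log2 fold change was 0.94, and with Bonferroni adjustment, which the study names beside a false discovery rate.

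For xylan-galactomannan, 6432 differed by a log2 fold change of 0.31 ± 0.22 from Avicel (edgeR adjusted p = 0.267) and by 0.49 ± 0.19 from maltose (edgeR adjusted p = 0.0448), and neither was called. Avicel differed from maltose by 0.18 ± 0.22 (edgeR adjusted p = 0.562), with overlapping libraries. Wheat straw was thus the only one of these 4 carbon sources on which the dioxygenase was called higher than another, at a level that remained far below that on aspen.

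The epoxide hydrolase was higher on both polysaccharide substrates than on maltose, in comparisons where substrate and maltose dose differ at once. Its log2 fold change was 1.10 ± 0.24 on xylan-galactomannan (SE, edgeR adjusted p = 0.00146) and 1.22 ± 0.26 on Avicel (edgeR adjusted p = 0.00153). The libraries did not overlap in either comparison, and 6.97% (xylan-galactomannan) and 6.01% (Avicel) of all genes were called higher in them, with 3.2% and 5.83% called lower. Both calls were lost with Bonferroni adjustment and when single libraries were left out. That on xylan-galactomannan was lost without xylan-galactomannan replicate 1 (0.86), maltose replicate 1 (0.98) or maltose replicate 2 (1.00), and that on Avicel without Avicel replicate 3 (0.96).

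In the wheat straw libraries, 5280 differed from maltose by a log2 fold change of 0.64 ± 0.24 (edgeR adjusted p = 0.0343), with overlapping libraries, and was not called. Wheat straw differed by -0.46 ± 0.24 from xylan-galactomannan (edgeR adjusted p = 0.115) and by -0.58 ± 0.26 from Avicel (edgeR adjusted p = 0.0889). Xylan-galactomannan and Avicel differed by -0.12 ± 0.27 (edgeR adjusted p = 0.758, in a comparison where 12% of all genes were called in either direction), a difference whose sign turned without xylan-galactomannan replicate 2 (0.08) or Avicel replicate 3 (0.17). The replicate spread of 5280 was wide, with a biological coefficient of variation of 0.208, against 0.155 for 6432 and a median of 0.129 over all genes.

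**Figure D3:**
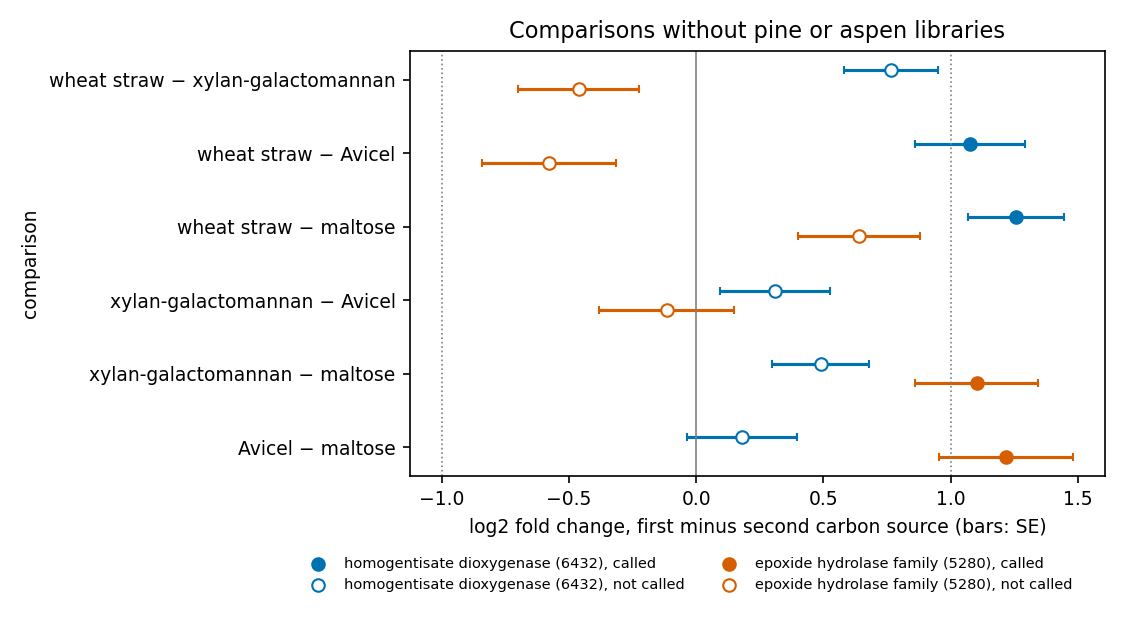
Log2 fold changes (first minus second carbon source) of both genes in the 6 comparisons without wood; bars are SE, filled points were called, open points were not, and dotted lines mark the fold-change threshold. The homogentisate dioxygenase gene was called higher on wheat straw against Avicel (1.08) and maltose (1.26), and the epoxide hydrolase gene on xylan-galactomannan (1.10) and Avicel (1.22) against maltose.

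Genes of related function were then examined, using 15 genes with predicted roles in aromatic metabolism, oxidation and export. The study selected them on these libraries as raised on plant substrates, so their counts against maltose are not independent evidence of a direction. It made this choice for each plant substrate, and it names 5741 and 5611 as regulated specifically on pine. The counts between the woods are therefore not free of selection either. Between the woods, 4 of the 15 rose and 3 fell on pine relative to aspen by edgeR, where 7.8% and 4.33% of all genes were. The median log2 fold change of the list was -0.13, against -0.05 over all genes. Leaving out pine replicate 3 gave 5 lower genes in place of 3, and Bonferroni adjustment gave 2 higher genes in place of 4.

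None of the 4 list genes of aromatic metabolism was called between the woods by edgeR or by DESeq2, and 1 had an unadjusted edgeR p under 0.05. Phenylalanine ammonia-lyase (350), which removes ammonia from phenylalanine to give cinnamate, had a mean of 2563 ± 1468 normalized counts in the pine libraries and 4142 ± 1170 in the aspen libraries (SD). Its log2 fold change was -0.71 ± 0.41. Phenylpyruvate tautomerase (8233), named for the interconversion of the keto and enol forms of phenylpyruvate, averaged 4107 ± 635 on pine and 6149 ± 963 on aspen, and its log2 fold change of -0.60 ± 0.18 passed the p threshold (edgeR adjusted p = 0.0110) but not that on fold change. A flavoprotein monooxygenase (7533), of a class that hydroxylates aromatic rings, had a log2 fold change of 0.18 ± 0.26. Succinyl-CoA:3-ketoacid CoA transferase (8434), which activates acetoacetate, the end product of the homogentisate route, had one of 0.23 ± 0.20. Chosen by the study as raised on plant substrates, all 4 were called higher on aspen against maltose, where 13.1% of all genes were, by log2 fold changes of 3.36 ± 0.45 for 350, 1.18 ± 0.18 for 8233, 2.89 ± 0.28 for 7533 and 1.11 ± 0.21 for 8434. On pine 350 (2.66 ± 0.44), 7533 (3.07 ± 0.28) and 8434 (1.33 ± 0.21) were called higher against maltose, and 8233 (0.58 ± 0.18) was not (13.7% of all genes were called higher).

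Among the 9 oxidation genes, 3 cytochrome P450 genes rose on pine relative to aspen, with log2 fold changes of 1.34 ± 0.17 for 2161, 1.34 ± 0.26 for 5611 and 1.15 ± 0.21 for 5741. The study had already named 5611 and 5741 as regulated specifically on pine. For aspen against maltose, 5611 was also called higher (3.39 ± 0.29), and 5741 was not called (0.98 ± 0.21). Another cytochrome P450 gene (1192) fell, with a log2 fold change of -1.74 ± 0.15 and means of 4206 ± 240 normalized counts on pine and 13875 ± 1423 on aspen. The laccase gene 8672, coding for a secreted oxidase of phenols, fell by 3.43 ± 0.28 on the log2 scale, with means of 6758 on pine and 71693 on aspen. A zinc-binding oxidoreductase (6014) also fell, at -1.47 ± 0.18. The other 3 were not called and had log2 fold changes of -0.58 ± 0.15 for the cytochrome P450 gene 8493, -0.91 ± 0.15 for the laccase gene 3446 and -0.13 ± 0.13 for the zinc-binding oxidoreductase 6844. Both 8493 (edgeR adjusted p = 0.00429) and 3446 (edgeR adjusted p = 0.000126) passed the p threshold but not that on fold change.

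Among the exporters, the ABC transporter 4348, of the pleiotropic drug resistance type, rose on pine relative to aspen by a log2 fold change of 3.88 ± 0.36, close to the value of the epoxide hydrolase. The study had grouped 4348 with the epoxide hydrolase by transcription pattern in these same libraries. Neither this rise nor the closeness of the values is therefore independent evidence. The transporter averaged 32107 ± 3499 normalized counts on pine and 2154 ± 1577 on aspen. On aspen its libraries ranged from 1080 to 3965. The multidrug exporter 4353 had a log2 fold change of 0.07 ± 0.18 and was not called.

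**Figure D4:**
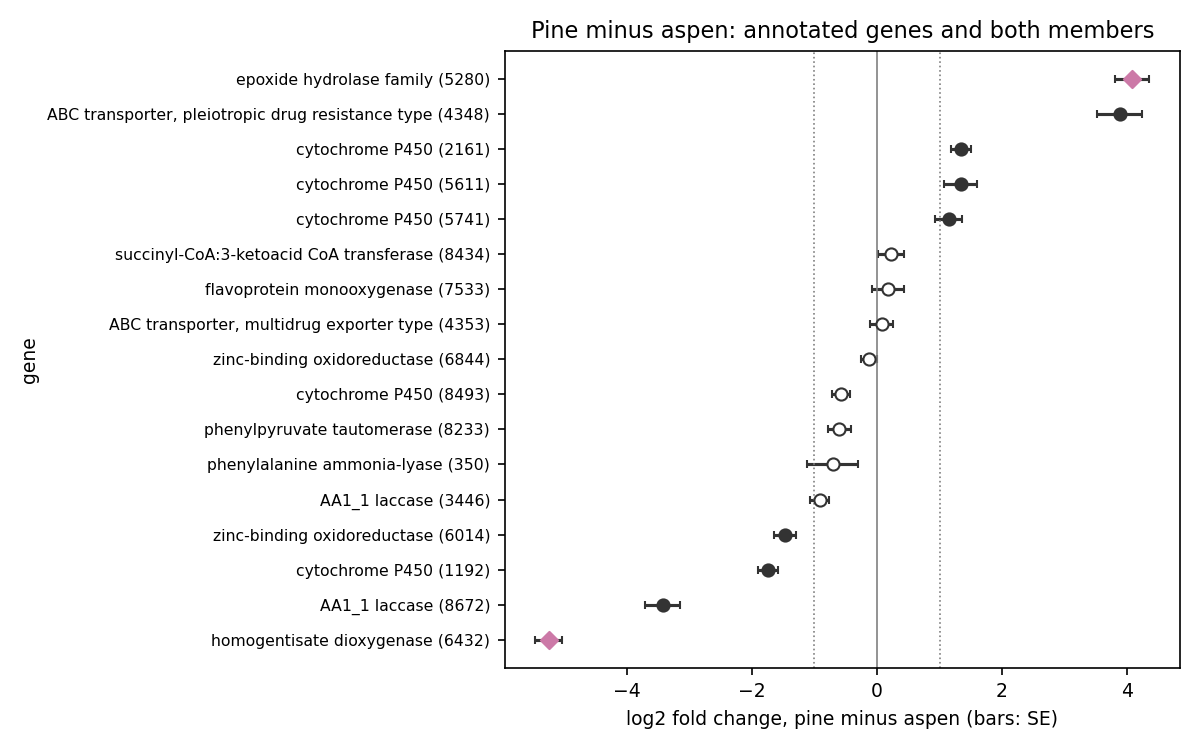
Log2 fold change of pine minus aspen for the 15 list genes (circles) and both members (diamonds, described without a test); bars are SE, filled circles were called, open circles were not, and dotted lines mark the fold-change threshold. The 4 list genes higher on pine include the ABC transporter 4348 (3.88), which the study grouped with the epoxide hydrolase on these libraries. The 3 lower ones include the laccase 8672 (-3.43), and the members lie at 4.08 and -5.25.

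Against maltose, most genes of the list were called higher on each plant substrate. The study had selected them as raised on plant substrates, with a separate choice for each substrate. It names 5741 and 5611 for pine, so not every gene was chosen on every substrate. These counts are therefore not independent evidence. On pine 13 of 15 genes were called higher and 0 lower (median log2 fold change 2.15), where 13.7% of all genes were called higher and 9.34% lower. On aspen 13 were higher and 0 lower (median 2.08; 13.1% of all genes were higher and 10% lower), and on wheat straw 13 were higher and 0 lower (median 1.63; 9.53% of all genes were higher and 6.13% lower). Xylan-galactomannan (median 0.91) and Avicel (median 0.73) each had 5 higher and 0 lower, where 6.97% and 3.2% of all genes were called higher and lower on xylan-galactomannan and 6.01% and 5.83% on Avicel. The genes not called higher were 8233 and 6014 on pine, 5741 and 4348 on aspen, and 8233 and 8434 on wheat straw. DESeq2 also called 0 lower in each of these comparisons, and 0 had a negative log2 fold change at an unadjusted edgeR p under 0.05. The median over all genes lay between -0.05 and 0.00 in these comparisons. The count on xylan-galactomannan was 3 without its replicate 1 and 3 with upper-quartile factors, and that on Avicel was 3 with Bonferroni adjustment. Set beside these values, the dioxygenase on pine (0.69) lay below the list's median, and the epoxide hydrolase on aspen (-1.45) lay on the other side of 0, where no list gene was called.

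The study's self-organizing map, which groups genes by transcription pattern, placed the epoxide hydrolase in a node where it selected 4 further annotated genes. These were the ABC transporter 4348, the major facilitator transporters 2797 and 8078, and 8551, of the glyoxylate and hydroxypyruvate reductase group. The map was built on these data, pine and aspen included, so likeness within a node follows from the grouping and is only described. All 4 had higher means on pine than on aspen, with log2 fold changes of 3.88 for 4348, 2.22 for 2797, 1.64 for 8078 and 2.25 for 8551. For aspen minus maltose the values were 0.52 for 4348, 0.25 for 2797, 2.46 for 8078 and 0.36 for 8551, so that the epoxide hydrolase, at -1.45, was the only gene of these with a lower fitted level on aspen than on maltose. The dioxygenase was the only annotated gene the study selected from its own node.

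Over all genes, the likeness of patterns was measured as Pearson's r of log2(normalized count + 1) across the 17 libraries, which share their groups and are given as a description. The genes most like the dioxygenase were 7378 (r = 0.97), 4809 (0.96), 7000 (0.96), 4773 (0.96) and 5481 (0.96), none of which the study's annotation names. All shared the high aspen level at a smaller size. Protein 5481, for example, averaged 34.2 ± 14.8 normalized counts on pine and 331 ± 41.5 on aspen, and 4809 averaged 141 ± 26.4 on pine and 812 ± 205 on aspen. Without the aspen libraries r lay between 0.31 (5481) and 0.78 (4809). Of 9152 genes, 32 had r above 0.9 with the dioxygenase and 8 had r below -0.9, the most opposite being 809 (r = -0.95), with means of 9286 on pine and 2425 on aspen. Predicted functions were at hand only for genes in the study's annotated set, so most genes could not be named. Within that set the most alike was the cytochrome P450 gene 1192 (r = 0.89), at rank 45 among the 9152 genes.

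No gene reached r = 0.9 with the epoxide hydrolase. Those most like it were 4577 (r = 0.90 when rounded), 6074 (0.89), 987 (0.88), 7451 (0.87) and 2585 (0.85), again without a name. Protein 2585 averaged 152 ± 45.7 normalized counts on pine and 23.7 ± 8.10 on aspen, and 4577 averaged 970 ± 75.9 on pine and 669 ± 41.1 on aspen. Within the annotated set the most alike was the ABC transporter 4348 (r = 0.80), at rank 43 over all genes. The most opposite of all genes was 544 (r = -0.90). The 2 members had r = -0.69 with each other over 17 libraries and r = 0.16 over the 11 libraries without wood. A negative r over libraries that include both woods follows from how the genes were chosen.

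**Figure D5:**
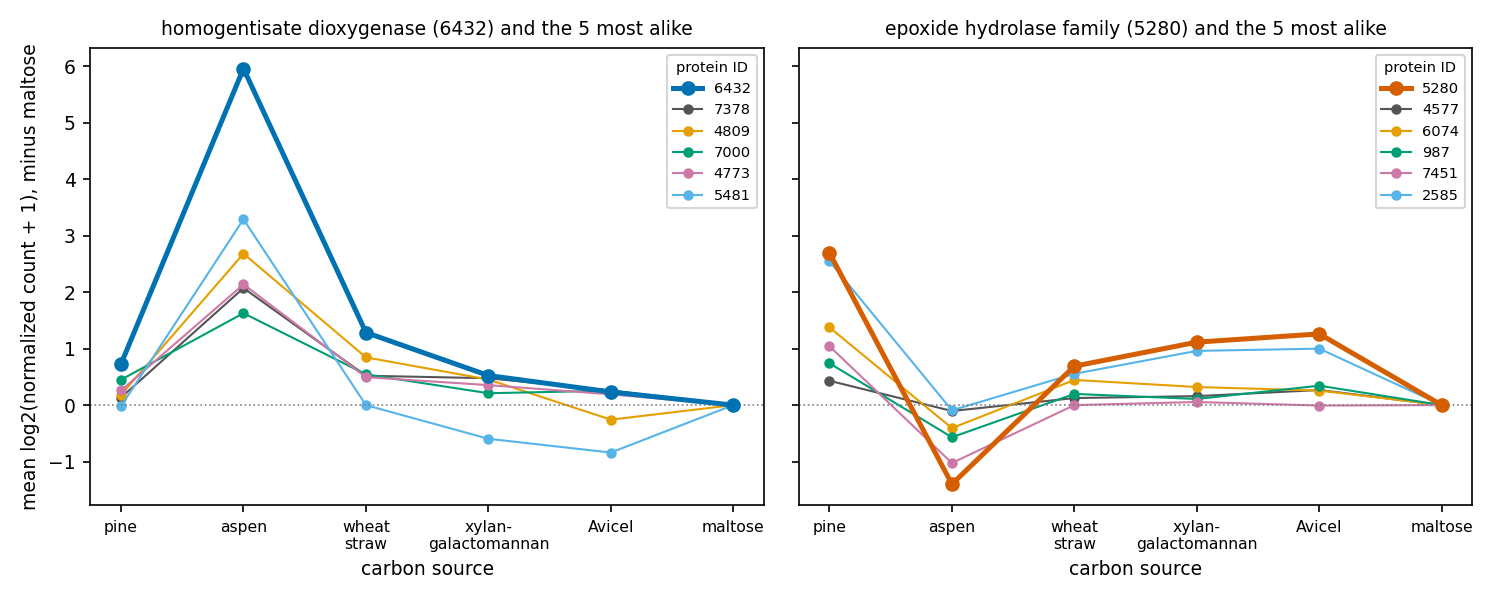
Group means of log2(normalized count + 1), minus the mean on maltose, for each member (thick line) and the 5 genes with the highest Pearson correlation to it (thin lines, by protein ID); lines join carbon sources only to guide the eye. All 5 genes most like 6432 are highest on aspen, with smaller differences than 6432 itself, and all 5 most like 5280 are highest on pine and lowest on aspen.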

How the data were processed

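RNA-seq libraries from 17 cultures were analysed. The authors aligned reads with TopHat 2 and deposited HTSeq counts for each gene model. They also deposited a normalized signal, on a linear scale, in which each library's counts are divided by its DESeq2 size factor. Handling of strand and of multi-mapping reads is not given in the sources used here. Overlapping genes and near-identical copies may therefore share counts.

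The counts were fitted with edgeR 4.0.16 in R 4.3.3. filterByExpr kept 9162 genes, TMM gave the scaling factors, and all 17 libraries entered a single quasi-likelihood model by group. p-values were adjusted by Benjamini-Hochberg over all genes of a comparison. A call needed an adjusted p under 0.05 together with a log2 fold change beyond 1 or -1. SE was obtained from the log2 fold change and the F statistic (their ratio, after taking the root of F). The pipeline was tested on simulated data.

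The genes named are the 2 members, the 15 list genes, the study's node companions, the neighbours in the pine minus aspen ranking, and for each member the 5 most alike genes, the most opposite one and the most alike one with a code. The members and lists were chosen with earlier results of these data known. Predicted functions came from codes in the study's annotation. 0 protein IDs matched the RefSeq gene table, so no coordinates or sequences are given. Alternatives were RLE and upper-quartile factors, no filter, DESeq2 1.42.0, Bonferroni adjustment (the study names both this and a false discovery rate), a fit of only the groups compared, a replicate block, and leaving out each library.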

Additional observations from a re-analysis of the deposited data

How the results depend on the processing

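The described differences that involve pine or aspen kept their direction under every alternative run (414 of 414 values). Of 288 values from the tested comparisons, 278 kept direction and call, 8 lost the call and 2 changed sign, and of 276 list counts 271 stayed within 1.5 times. Bonferroni adjustment ended the calls of 6432 on wheat straw against Avicel (log2 fold change 1.08) and of 5280 against maltose on xylan-galactomannan (1.10) and Avicel (1.22), and it left 2 list genes higher on pine than aspen and 3 higher on Avicel than maltose. Upper-quartile factors left 3 list genes higher on xylan-galactomannan than maltose. They also moved the median of all genes by -0.12 for pine minus maltose. When each library was left out, the log2 fold change ranged from 0.94 to 1.21 for 6432 on wheat straw against Avicel. For 5280 it ranged from 0.86 to 1.36 on xylan-galactomannan against maltose, from 0.96 to 1.49 on Avicel against maltose, and from -0.36 to 0.17 on xylan-galactomannan against Avicel, where the positive values were 0.08 without xylan-galactomannan replicate 2 and 0.17 without Avicel replicate 3. List counts ranged from 3 to 5 lower genes for pine against aspen, and from 3 to 6 higher genes for xylan-galactomannan against maltose. The cause of these changes was not tested. Replicate numbers were not taken to pair the samples, since not every same-numbered pair of libraries had deviations correlated above 0.1. This held for 12 of 40 pairs (median 0.04), against 10 of 80 pairs with different numbers (median -0.02). A rule that every pair must meet is strict and cannot decide against pairing. A replicate block gave -5.23 for 6432 and 4.08 for 5280 in pine minus aspen and changed no call of either gene.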
